A study of Mus musculus with 6 samples.

Results

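Amino acid transporters were followed in urethane-induced lung tumours and in control lung of FVB/NJ mice, an inbred strain. The members are the genes of the solute carrier (Slc) families 1, 3, 7, 36, 38 and 43, taken by their symbols in the deposited table, together with Slc6a14. They number 43 of the 33924 gene names in the table: 15 of family 7, 11 of family 38, 7 of family 1, 4 of family 36, 3 of family 43, 2 of family 3, and Slc6a14. Bulk RNA sequencing gave 6 libraries in 2 groups of 3, urethane-induced lung tumour (replicates 1, 2 and 4) and normal lung (control, replicates 1, 2 and 3), all harvested at 6 months. The treatment was an intraperitoneal injection of saline or of urethane, a chemical carcinogen, at 1 g per kg, and the labels give neither the age nor the sex of the animals. How tumour was dissected away from lung and whether the libraries are from separate animals is not in the labels, so p-values measure the spread between these libraries.

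Most amino acids cross the plasma membrane on carriers that differ in which amino acids they accept and in what drives them. Family 1 and family 38 carriers are driven mainly by sodium, family 36 carriers by protons, and many family 7 carriers are exchangers whose light chain reaches the membrane only when joined to a heavy chain of family 3. Slc3a2 (also called CD98 heavy chain) joins Slc7a5, Slc7a6, Slc7a7, Slc7a8, Slc7a10 and Slc7a11, and Slc3a1 joins Slc7a9. Through Slc7a5 a cell takes up leucine, a signal for the growth kinase complex mTORC1, and through Slc7a11 it takes up cystine, the source of cysteine for glutathione.

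Libraries held 48509129 to 62336537 counted reads in tumours and 38996532 to 59037341 in control lung. Levels are given as CPM, counts relative to library size after scaling libraries to each other (TMM), and 3 reads correspond to 0.0456 to 0.0815 CPM. The summed level of the 10 surfactant and alveolar type 2 cell markers was 28954 to 65591 CPM in tumours and 10095 to 16708 CPM in control lung, and 9 of the 10 rose. All 10 endothelial markers fell, with a sum of 252 to 360 CPM in tumours and 3461 to 4582 CPM in control lung, although none was under 1 CPM in all 3 tumours. The club cell list summed to 67.1 to 105 CPM in tumours and 9853 to 16476 CPM in control lung, and 5 of its 6 genes fell. The sixth, Aldh1a7, did not pass and made up most of the tumour sum, with 35.3 to 68.7 CPM in tumours and 47.6 to 73.2 CPM in control lung. Falls were also the rule for ciliated cells (7 of 7 genes), smooth muscle cells and pericytes (7 of 7), T and NK cells (10 of 10), neutrophils (8 of 8), cardiac muscle (5 of 5), fibroblasts (7 of 8), B and plasma cells (5 of 7), red blood cells (3 of 4 tested) and alveolar type 1 cells (6 of 8, with 1 that rose). The summed levels of the red blood cell list and of the B and plasma cell list overlapped between the groups. Red blood cell markers summed to 29.8, 23.3 and 16.97 CPM in tumour replicates 1, 2 and 4. Control replicates 1, 2 and 3 had 23.1, 493 and 64.5 CPM. The B and plasma cell sum was 271 CPM in tumour replicate 2, within the control range of 208 to 316 CPM. The other tumours were below that range. Of the macrophage lists, the alveolar one had 1 gene that rose and none that fell of 8, and the other had 2 that rose and 2 that fell of 10. In bulk tissue, fewer cells of a type and less RNA per cell cannot be told apart, and this holds for every fall described here. For every rise, more cells of a type and more RNA per cell cannot be told apart either. The part of these marker changes in the transporter values was not tested. Tumour replicate 2 stood apart in sex-linked genes: Xist was at 3360 CPM there and no higher than 32.9 CPM elsewhere, and 4 Y-linked genes did not exceed 0.215 CPM there and were at 37.6 CPM or more elsewhere.

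Of the 43 transporters, 34 had enough reads to be tested. In tumours 7 of these rose and 14 fell (edgeR's quasi-likelihood test, p adjusted by Benjamini-Hochberg over all genes tested, threshold 0.05), and 13 did not pass. Among all 20001 genes tested, 18.1% rose and 23.8% fell, 42.0% in either direction. The median log2 fold change of the 34 transporters was -0.59, beside 0.01 over all genes tested. Levels of the groups did not overlap for 9 transporters higher and 17 lower in tumours, where 26.1% and 29.9% of all genes were so separated. At least 2-fold changes were called for 4 transporters higher and 11 lower, beside 10.5% and 20.1% of all genes. Without control replicate 1 the transporters that rose numbered 4, namely Slc38a2, Slc7a5, Slc36a1 and Slc3a1. By family, 4 of 11 tested members of family 7 rose and 3 fell, while in family 1 none rose and 4 of 6 fell. Family 38 had 1 member that rose and 2 that fell of 8, family 43 had 2 that fell of 3, family 36 had 1 in each direction of 3, and so did family 3 of 2. The shares of 18.1% and 23.8% over all genes also stand beside the counts of each substrate group below.

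**Figure D1:**
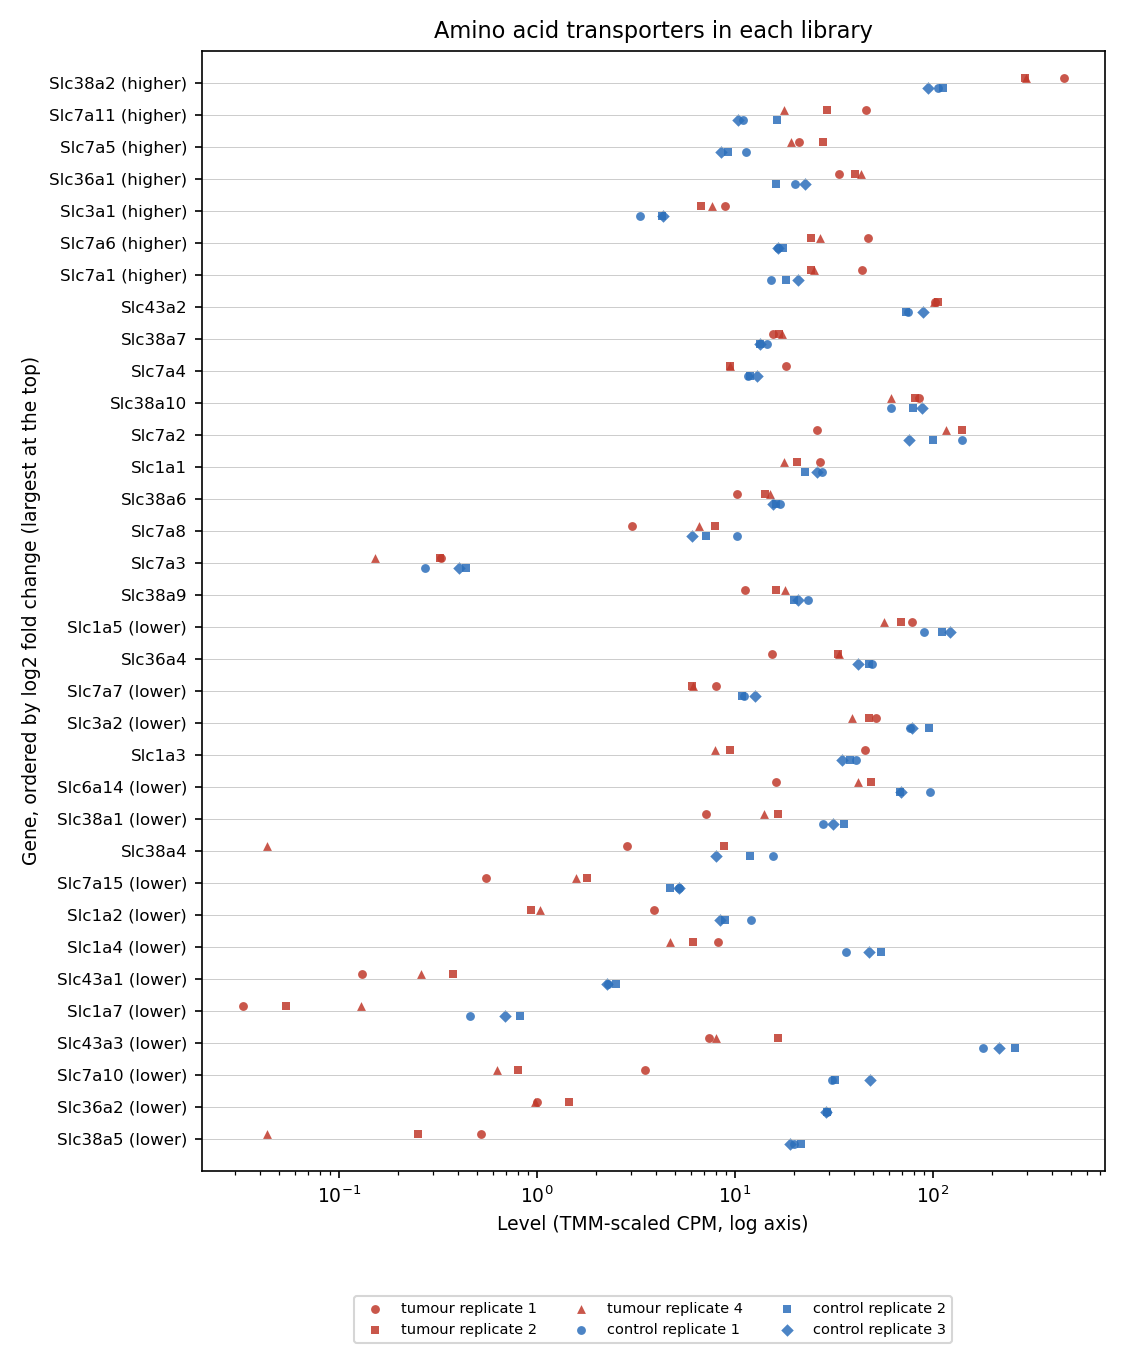
Level of each of the 34 tested transporters in every library (horizontal log axis, TMM-scaled CPM), ordered by log2 fold change with the largest at the top. Tumour libraries are red and control libraries blue, and the words higher and lower mark the 7 members that rose and the 14 that fell in tumours.

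Per kb of exon, the leading transporter differed between the groups. In tumours Slc38a2 had the highest level of the 43 members, 75.2 ± 20.7 CPM per kb (SD, n = 3), followed by Slc1a5 at 16.3 ± 2.64, Slc3a2 at 15.6 ± 2.12, Slc38a10 at 11.9 ± 1.93 and Slc7a2 at 10.3 ± 6.61. Slc1a5 and Slc3a2 differed by less than their SD, and so did Slc38a10 and Slc7a2. In control lung Slc43a3 came first at 49.0 ± 9.24 CPM per kb, ahead of Slc3a2 at 28.3 ± 3.59, Slc1a5 at 26.0 ± 3.96, Slc6a14 at 22.8 ± 4.71 and Slc38a2 at 22.5 ± 2.004, and each neighbouring pair among these last 4 differed by less than its SD. Slc43a3 ranked 21 of 43 in tumours. The levels of all members summed to 1209, 1125 and 1017 CPM in tumour replicates 1, 2 and 4, and to 1290, 1376 and 1303 CPM in control replicates 1, 2 and 3. These sums include Slc43a3, which transports purine nucleobases. Slc43a3 alone held 7.41, 16.6 and 8.05 CPM in tumours and 179, 261 and 216 CPM in control lung. Slc38a2 held 37.9%, 25.8% and 29.0% of the sum over all members in tumours and 8.24%, 8.17% and 7.23% in control lung.

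Promoter sequence is printed for the inducible cystine carrier Slc7a11, the glutamine carrier Slc38a2 and the proton-coupled carrier Slc36a1, which rose. The other printed promoter is that of the glutamine carrier Slc38a5, which fell. Each is the 250 bases upstream of the RefSeq gene start (GRCm38.p6), read 5′ to 3′ on the gene's strand, with motif matches in capitals. The 4 regions are chr3:50443614-50443863 on the minus strand, chr15:96699729-96699978 on the minus strand, chr11:55204090-55204339 on the plus strand and chrX:8271131-8271380 on the plus strand.
Slc7a11: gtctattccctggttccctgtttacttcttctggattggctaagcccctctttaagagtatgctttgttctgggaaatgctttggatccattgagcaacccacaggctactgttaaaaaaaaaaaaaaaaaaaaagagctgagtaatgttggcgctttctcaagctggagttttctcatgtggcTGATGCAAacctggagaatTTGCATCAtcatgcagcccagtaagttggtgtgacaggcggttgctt
Slc38a2: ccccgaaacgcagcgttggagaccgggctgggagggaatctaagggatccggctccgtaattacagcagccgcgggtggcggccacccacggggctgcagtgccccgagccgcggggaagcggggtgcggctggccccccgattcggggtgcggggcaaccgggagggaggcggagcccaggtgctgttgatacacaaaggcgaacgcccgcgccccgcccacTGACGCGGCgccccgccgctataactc
Slc36a1: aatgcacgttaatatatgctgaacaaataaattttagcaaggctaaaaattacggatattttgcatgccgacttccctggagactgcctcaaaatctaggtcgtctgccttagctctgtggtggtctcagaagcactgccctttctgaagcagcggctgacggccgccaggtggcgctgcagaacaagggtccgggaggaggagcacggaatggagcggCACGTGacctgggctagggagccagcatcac
Slc38a5: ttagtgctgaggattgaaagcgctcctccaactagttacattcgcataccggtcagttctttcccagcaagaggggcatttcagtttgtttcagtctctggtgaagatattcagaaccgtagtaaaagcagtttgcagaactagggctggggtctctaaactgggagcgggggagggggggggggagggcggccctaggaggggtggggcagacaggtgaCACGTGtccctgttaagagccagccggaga
The Slc7a11 promoter holds the composite element of the stress transcription factor ATF4 (TGATGNAA, searched on both strands) in 2 copies, of which 1 begins 66 bases before the start and the other, on the opposite strand, 47 bases before it. That element is in 3.45% of 32851 mouse promoters of this length, and among the 32 members with a promoter entry it is also in that of Slc7a7, which fell. The core of the antioxidant response element, TGACNNNGC, is in 10.2% of promoters and in those of Slc38a2, 27 bases before the start, Slc7a1, Slc7a6 and Slc43a1. The E-box CACGTG, bound by the MYC and TFEB families of transcription factors, is in 6.02% of promoters. Among members it is in those of Slc36a1, Slc38a5, Slc38a7, Slc43a1, Slc1a6, Slc1a7 and Slc7a14, so genes that rose and genes that fell both carry it. In the 4 printed sequences no match overlaps another, and CACGTG reads the same on both strands. All 4 hold a match, whereas the promoters of Slc1a4 and Slc7a10, which fell, hold none of these motifs. A match describes letters in this window only.

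Cystine and cysteine carriers moved in different directions. Of the 4 tested, Slc7a11 and Slc3a1 rose, Slc3a2 fell and Slc1a1 did not pass. Slc7a11, the light chain of the cystine and glutamate exchanger xCT, had 46.2, 29.3 and 17.7 CPM in tumour replicates 1, 2 and 4, against 10.98, 16.2 and 10.4 CPM in control replicates 1, 2 and 3. The groups did not overlap, the lowest tumour lay close to the highest control, and the log2 fold change was 1.31 ± 0.35 (SE, adjusted p = 0.0166). Its adjusted p was 0.0622 without control replicate 1 and 0.0722 without control replicate 3. Slc3a2, the heavy chain that xCT shares with 5 other light chains, had 51.5, 47.6 and 39.2 CPM in tumours and 76.6, 95.9 and 78.5 CPM in control lung. Every tumour was below every control, a log2 fold change of -0.86 ± 0.16 (adjusted p = 0.00361). Slc3a1, the heavy chain of the cystine and dibasic amino acid carrier best known from the kidney, averaged 7.77 ± 1.08 CPM in tumours and 3.97 ± 0.57 CPM in control lung (SD, n = 3 in each group), with a log2 fold change of 0.97 ± 0.23 (adjusted p = 0.0104). Of its exon bases 26.4% lie in exons of Prepl, which had a log2 fold change of 1.00 ± 0.15 (adjusted p = 8.81e-04), and reads in that stretch were counted for both names. Slc7a9, the light chain of Slc3a1, had 2 reads over the tumour libraries and 0 over the controls, and Slc7a13, another light chain of Slc3a1, had 3 and 2, so neither was tested. Slc1a1, which carries glutamate, aspartate and cysteine, had 26.9, 20.5 and 17.7 CPM in tumours and 27.5, 22.7 and 26.1 CPM in control lung, which overlapped (log2 fold change -0.23 ± 0.19, adjusted p = 0.378).

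Among glutamine carriers, Slc38a2 and Slc7a6 rose and 5 fell of 8 tested. Slc38a2 (SNAT2), a sodium-coupled carrier of small neutral amino acids that cells induce when amino acids run short, had 458, 291 and 295 CPM in tumour replicates 1, 2 and 4, against 106, 112 and 94.2 CPM in control replicates 1, 2 and 3. Each tumour was more than 2-fold above each control, with a log2 fold change of 1.74 ± 0.22 (adjusted p = 4.04e-04). Slc38a1 (SNAT1), a related carrier beside it on chromosome 15, moved the other way, with 7.18, 16.6 and 14.0 CPM in tumours and 28.01, 35.7 and 31.3 CPM in control lung. All 3 tumours were below the lowest control (log2 fold change -1.33 ± 0.29, adjusted p = 0.00733). Per kb of exon the ratio of Slc38a2 to Slc38a1 was 116, 31.8 and 38.2 in tumours and 6.88, 5.71 and 5.47 in control lung.

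Slc38a5 (SNAT5), which carries glutamine, histidine and glycine, had the most negative log2 fold change of the 34 tested members. It had 0.523, 0.252 and 0.0434 CPM in tumours and 20.0, 21.5 and 19.0 CPM in control lung, with 48 reads over the tumour libraries and 3088 over the controls. The log2 fold change was -6.14 ± 0.58 (adjusted p = 1.09e-04), and -6.97 without tumour replicate 1. Slc1a5 (ASCT2), a sodium-dependent exchanger of glutamine, had 78.3, 69.0 and 56.5 CPM in tumours and 90.3, 112 and 123 CPM in control lung. Its groups did not overlap and the log2 fold change was -0.67 ± 0.18 (adjusted p = 0.0177), but its adjusted p was 0.0678, 0.0639 and 0.0790 without tumour replicate 4, control replicate 2 and control replicate 3. Slc38a7, a lysosomal glutamine carrier, averaged 16.5 ± 0.88 CPM in tumours and 13.8 ± 0.63 CPM in control lung and did not pass (log2 fold change 0.26 ± 0.15, adjusted p = 0.201). Slc38a3, the glutamine carrier best known from liver and kidney, had 28 reads over the tumours and 29 over the controls, and Slc38a8 had 3 and 2, and neither was tested.

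Slc6a14 (ATB0,+), which is driven by sodium and chloride and takes neutral and cationic amino acids alike, had 16.1, 48.7 and 41.8 CPM in tumours and 96.8, 68.5 and 69.2 CPM in control lung. All tumours were below all controls, tumour replicate 1 furthest, and the log2 fold change was -1.14 ± 0.37 (adjusted p = 0.0390). The adjusted p was 0.0585 without tumour replicate 4, and 0.123, 0.0753 and 0.0926 without control replicates 1, 2 and 3. Slc6a14, Slc38a5 and Slc7a3 lie on the X chromosome. Without tumour replicate 2, the library that differed in Xist, Slc6a14 had -1.43 (adjusted p = 0.0206) and Slc38a5 -6.05 (adjusted p = 3.23e-04).

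Of 6 carriers of leucine and other large neutral amino acids, 1 rose and 3 fell. Slc7a5 (LAT1), the light chain that exchanges intracellular glutamine for leucine, had 21.2, 28.04 and 19.2 CPM in tumour replicates 1, 2 and 4, against 11.4, 9.29 and 8.53 CPM in control replicates 1, 2 and 3. The groups were apart by a log2 fold change of 1.23 ± 0.21 (adjusted p = 0.00190), while its heavy chain Slc3a2 fell. Slc7a8 (LAT2), the related exchanger of broader range, had 3.04, 7.94 and 6.62 CPM in tumours and 10.3, 7.14 and 6.05 CPM in control lung, which overlapped (log2 fold change -0.42 ± 0.38, adjusted p = 0.412). Per kb of exon the ratio of Slc7a5 to Slc7a8 was 7.99, 4.05 and 3.34 in tumours and 1.27, 1.49 and 1.62 in control lung.

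The family 43 carriers of large neutral amino acids work without a heavy chain. Slc43a1 (LAT3) had 0.131, 0.377 and 0.260 CPM in tumours and 2.28, 2.51 and 2.27 CPM in control lung. It was low in both groups and lower in every tumour (log2 fold change -3.20 ± 0.43, adjusted p = 5.99e-04). Slc43a2 (LAT4) had 102, 106 and 102 CPM in tumours and 74.6, 72.9 and 89.0 CPM in control lung. Its groups did not overlap, yet it missed the threshold (log2 fold change 0.39 ± 0.14, adjusted p = 0.0526), with adjusted p of 0.0372 without tumour replicate 1 and 0.0352 without control replicate 3. Slc43a3, a relative of these genes that transports purine nucleobases, had 7.41, 16.6 and 8.05 CPM in tumours and 179, 261 and 216 CPM in control lung. Every tumour was more than 10-fold below every control, with a log2 fold change of -4.35 ± 0.36 (adjusted p = 5.77e-05).

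Cationic amino acid carriers, which take up arginine and lysine, split 3 higher and 2 lower of 9 tested. Slc7a1 (CAT1), the widely expressed arginine carrier, had 43.9, 24.2 and 25.3 CPM in tumour replicates 1, 2 and 4, against 15.2, 18.1 and 21.0 CPM in control replicates 1, 2 and 3. The highest level was in tumour replicate 1 and the groups did not overlap (log2 fold change 0.78 ± 0.26, adjusted p = 0.0401). Its adjusted p was 0.127, 0.104 and 0.0624 without control replicates 1, 2 and 3. Slc7a2 (CAT2), the inducible arginine carrier, had 26.0, 140.3 and 117 CPM in tumours and 140.9, 101 and 75.8 CPM in control lung. Tumour replicate 1 was below all other libraries and the other tumours lay within the control range, so no direction was called (log2 fold change -0.16 ± 0.53, adjusted p = 0.829). Leaving out tumour replicate 1 gave 0.31, and leaving out control replicate 1 gave 0.10. Slc7a6 (y+LAT2), which exports arginine for glutamine and sodium, averaged 32.8 ± 12.6 CPM in tumours and 16.9 ± 0.54 CPM in control lung (log2 fold change 0.96 ± 0.26, adjusted p = 0.0171). Its adjusted p was 0.0559, 0.0537 and 0.0631 without control replicates 1, 2 and 3. The related y+LAT1 chain, Slc7a7, had 8.03, 6.07 and 6.18 CPM in tumours and 11.1, 10.8 and 12.6 CPM in control lung. It fell by 0.77 ± 0.20 on the log2 scale (adjusted p = 0.0155), though leaving out tumour replicate 4 gave an adjusted p of 0.0570 and leaving out control replicate 3 gave 0.0746. Of its exon bases 9.96% lie in exons of Oxa1l. Slc7a3 (CAT3) had 0.152 to 0.327 CPM in tumours and 0.272 to 0.441 CPM in control lung (log2 fold change -0.48 ± 0.46, adjusted p = 0.441). Slc38a9, the lysosomal carrier that reports arginine to mTORC1, averaged 15.1 ± 3.39 CPM in tumours and 21.4 ± 1.72 CPM in control lung and did not pass (log2 fold change -0.51 ± 0.20, adjusted p = 0.0761).

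**Figure D2:**
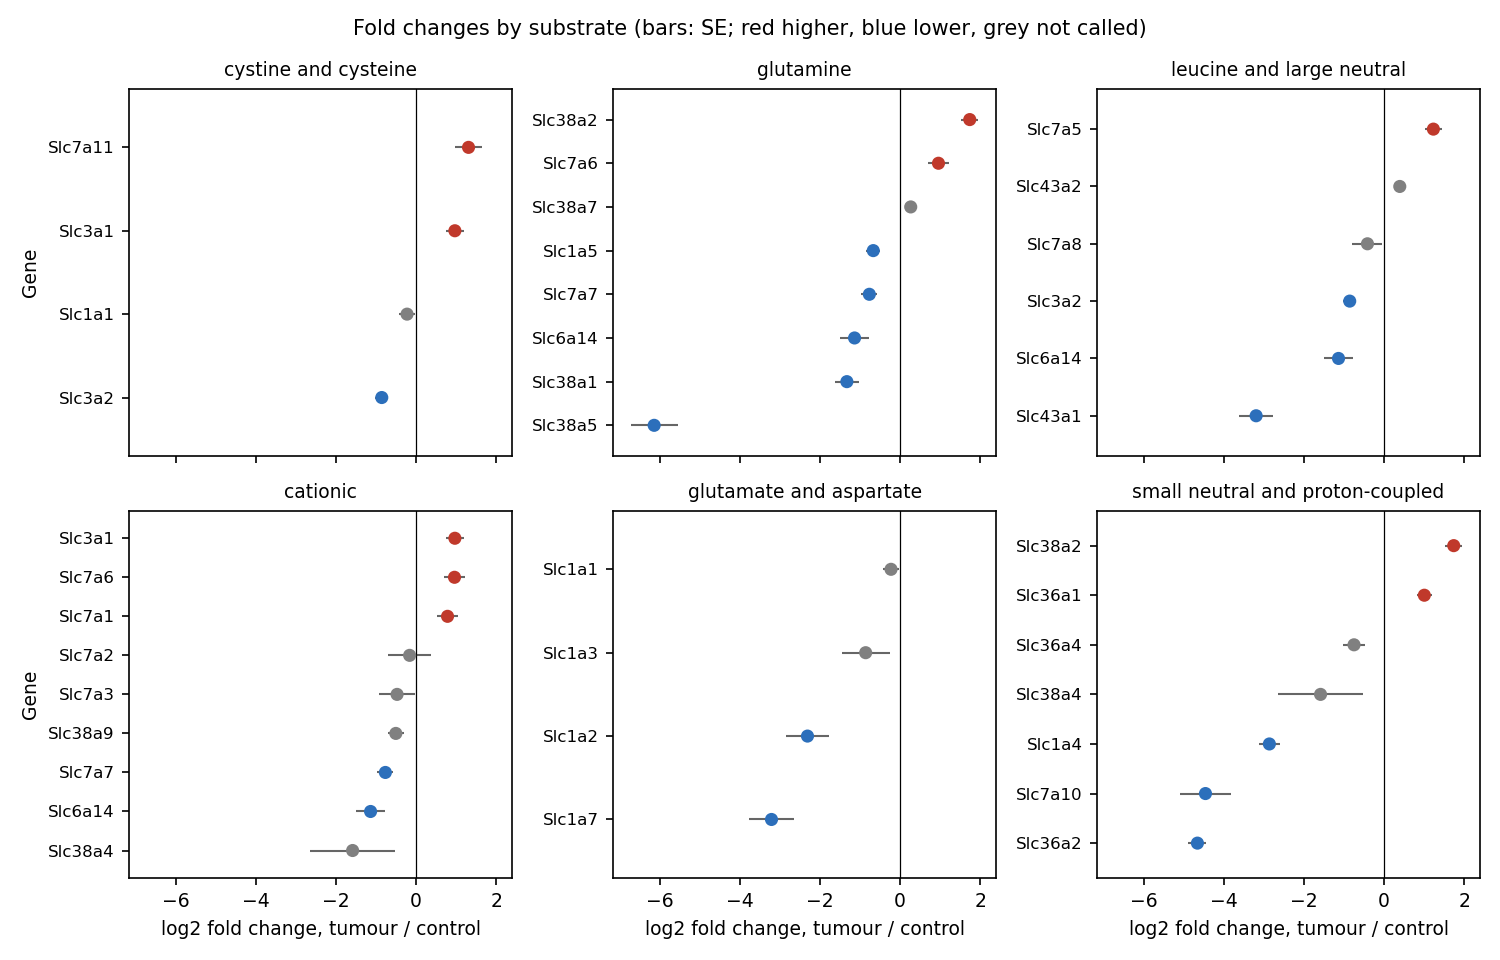
Log2 fold change (tumour over control, points) with its standard error (bars) for the tested transporters of 6 substrate groups. A gene can be in more than 1 group. Red points rose, blue points fell and grey points did not pass; the cystine, glutamine, leucine and cationic groups each hold members on both sides of 0.

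Of 4 tested carriers of glutamate and aspartate, none rose and 2 fell, and Slc1a1 is described above. Slc1a2 (GLT-1), the main glutamate carrier of brain astrocytes, had 3.89, 0.934 and 1.04 CPM in tumours and 12.04, 8.95 and 8.39 CPM in control lung. It fell by 2.31 ± 0.55 (adjusted p = 0.00990), and by 3.28 without tumour replicate 1. Slc1a7 was low in both groups, with 0.0327, 0.0539 and 0.130 CPM in tumours and 0.462, 0.821 and 0.691 CPM in control lung (11 and 105 reads, log2 fold change -3.21 ± 0.57, adjusted p = 0.00252), and had -3.87 without tumour replicate 4. Slc1a3 (GLAST) had 45.2, 9.45 and 7.96 CPM in tumours and 41.1, 38.1 and 34.7 CPM in control lung. Tumour replicate 1 was above all controls and the other tumours were far below them, and the gene was not called (log2 fold change -0.86 ± 0.60, adjusted p = 0.286). Without tumour replicate 1 its log2 fold change was -2.09 with an adjusted p of 2.47e-05. Slc1a6 had 0 reads over the tumours and 22 over the controls, at least 7.87-fold lower in tumours when set against 3 reads over the group.

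Of 7 tested carriers of small neutral amino acids, among them the proton-coupled ones, 2 rose and 3 fell. Slc36a2 (PAT2), a proton-coupled carrier of glycine, alanine and proline, had 0.997, 1.45 and 0.976 CPM in tumours and 29.1, 29.3 and 28.7 CPM in control lung. It fell by 4.66 ± 0.22 on the log2 scale, with the smallest adjusted p of the members (1.13e-05). Slc7a10 (Asc-1), which exchanges small neutral amino acids including D-serine, had 3.53, 0.808 and 0.629 CPM in tumours and 30.9, 31.98 and 48.2 CPM in control lung. Its log2 fold change was -4.46 ± 0.64 (adjusted p = 8.54e-04), and -5.64 without tumour replicate 1. Of its exon bases 29.5% lie in exons of Lrp3, which had 13.6, 2.44 and 1.15 CPM in tumours and 22.9, 22.7 and 32.2 CPM in control lung. Both Slc36a2 and Slc7a10 are known from fat cells. A list of 10 fat cell genes summed to 30.8 to 36.03 CPM in tumours and 40.3 to 56.9 CPM in control lung, and of its 5 tested genes Cidec and Plin4 fell. Lipe made up most of the tumour sum, with 18.2 to 23.7 CPM in tumours and 20.4 to 30.6 CPM in control lung, and did not pass. P2rx5 and Plin1 did not pass either, with log2 fold changes of 0.58 ± 0.37 (adjusted p = 0.246) and -0.17 ± 0.75 (adjusted p = 0.875). Adipoq and Lep, also on that list, had 0 CPM in all 3 tumours and at most 0.264 CPM in control lung, too few reads to be tested. The part of fat cells in the values of Slc36a2 and Slc7a10 was not tested. Slc1a4 (ASCT1), a sodium-dependent exchanger of alanine, serine and cysteine, had 8.21, 6.18 and 4.69 CPM in tumours and 36.4, 55.0 and 47.9 CPM in control lung, a log2 fold change of -2.87 ± 0.26 (adjusted p = 8.34e-05).

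Slc36a1 (PAT1), which carries small amino acids out of lysosomes with protons and takes part in mTORC1 activation, was the family 36 member that rose. It had 33.7, 40.6 and 43.6 CPM in tumours and 20.1, 16.2 and 22.5 CPM in control lung. Its groups were apart by a log2 fold change of 1.00 ± 0.18 (adjusted p = 0.00264), and of the 32-base words of its transcript 3.08% also occur in another gene, most often Slc36a2. Slc36a4 had 15.4, 33.3 and 33.7 CPM in tumours and 49.4, 47.4 and 41.9 CPM in control lung and was not called (log2 fold change -0.75 ± 0.28, adjusted p = 0.0638), while without tumour replicate 1 it had -0.44 with an adjusted p of 0.0292. Slc38a4 (SNAT4) had 2.86, 8.85 and 0.0434 CPM in tumours and 15.6, 11.9 and 8.02 CPM in control lung. The highest tumour level was 204 times the lowest, the widest spread among the tested members, and it did not pass (log2 fold change -1.59 ± 1.05, adjusted p = 0.264). Its log2 fold change was -2.99 (adjusted p = 0.0535) without tumour replicate 2 and -1.005 (adjusted p = 0.158) without tumour replicate 4. Slc7a15 had 0.556, 1.80 and 1.58 CPM in tumours and 5.22, 4.70 and 5.24 CPM in control lung (log2 fold change -1.95 ± 0.43, adjusted p = 0.00708).

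The remaining members were not called or had too few reads to test. Slc38a10, Slc7a4 and Slc38a6 had log2 fold changes of -0.01 ± 0.19, 0.02 ± 0.28 and -0.30 ± 0.19, none of which passed, and 58.4% of the 32-base words of Slc38a6 also occur in another gene, most often D10Wsu102e. Of the exon bases of Slc7a4, 13.9% lie in exons of P2rx6. Slc38a11 had 1 read over the tumours and 42 over the controls, a level 45.1 times higher in control lung (95% counting interval 7.66 to 1822). Slc36a3 had 2 and 22 reads, a ratio of 11.8 (2.90 to 104), and Slc7a14 had 2 and 14, a ratio of 7.51 (1.73 to 68.1), both also higher in control lung. Slc7a12 had 2 reads over the tumours and 0 over the controls. Such intervals cover counting error only.

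The light chains that join Slc3a2 differed in make-up between the groups. Per kb of exon Slc3a2 had 17.4, 16.1 and 13.3 CPM in tumour replicates 1, 2 and 4 and 25.9, 32.4 and 26.5 CPM in control replicates 1, 2 and 3. Its 6 light chains summed to 28.5, 22.1 and 18.9 CPM per kb in tumours and 28.7, 28.3 and 34.4 CPM per kb in control lung. Slc7a10 made up 5.02%, 1.49% and 1.35% of that sum in tumours and 43.7%, 45.9% and 56.8% in control lung, with the overlap with Lrp3 included. Without Slc7a10 the other 5 summed to 27.1, 21.8 and 18.6 CPM per kb in tumours and 16.1, 15.3 and 14.9 CPM per kb in control lung. Every tumour then lay above every control, whereas with Slc7a10 the sums overlapped. Slc7a6 held 44.4%, 29.6% and 38.1% of the light chain sum in tumours and 15.6%, 16.6% and 12.9% in control lung, and Slc7a5 held 21.1%, 36.1% and 29.0% in tumours and 11.3%, 9.33% and 7.05% in control lung. The ratio of Slc7a11 to Slc3a2 per kb was 0.236, 0.162 and 0.119 in tumours and 0.0377, 0.0446 and 0.0349 in control lung. These ratios were not tested and are of RNA, not of assembled carriers.

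**Figure D3:**
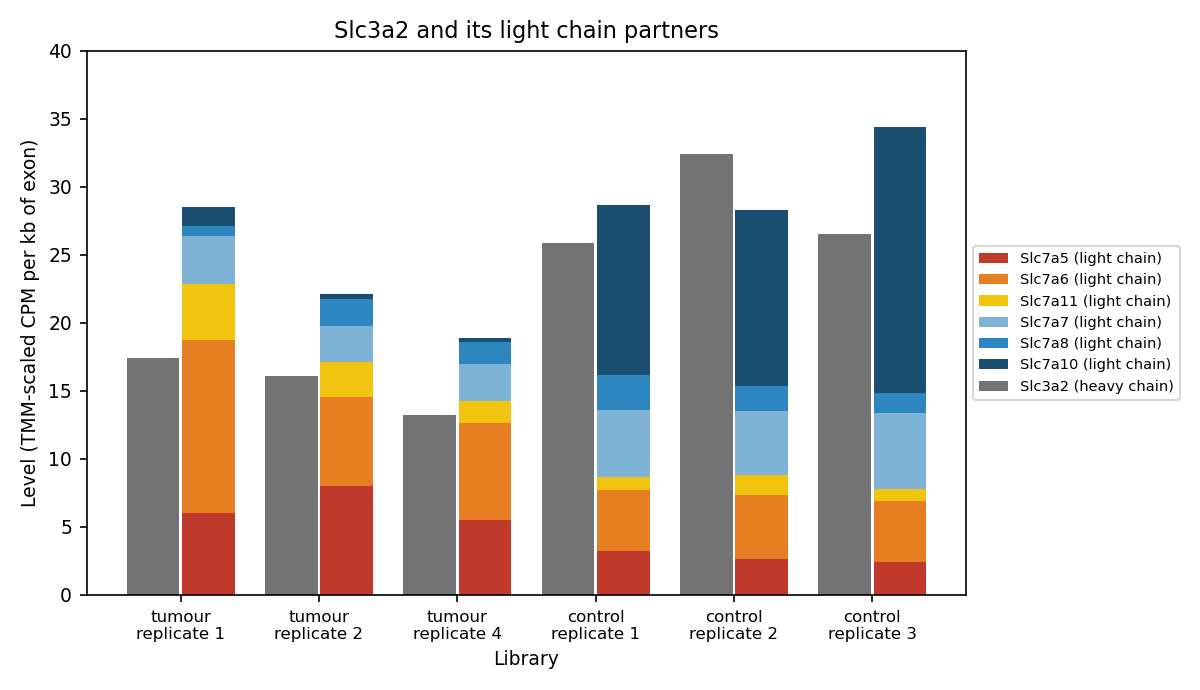
Level of the heavy chain Slc3a2 (grey bar) beside the stacked levels of its 6 light chains in each library (vertical axis, TMM-scaled CPM per kb of exon). Slc7a10, the dark blue block at the top of each stack, makes up 1.35% to 5.02% of the light chain sum in the tumours and 43.7% to 56.8% in the controls. The overlap of Slc7a10 exons with those of Lrp3 is included in these shares.

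In 2 clusters of members on the genome, neighbours moved in opposite directions. On chromosome 15 (mm9) Slc38a1 (96401849 to 96473344), Slc38a2 (96517825 to 96530129) and Slc38a4 (96825254 to 96886387) lie on the minus strand within 485 kb, and Slc38a1 fell while Slc38a2 rose. On chromosome 11 Slc36a3 (54938317 to 54965210), Slc36a2 (54971972 to 54998579) and Slc36a1 (55017852 to 55049832) lie within 112 kb, and Slc36a2 fell while Slc36a1 rose. Slc43a1 and Slc43a3 (84679007 to 84703751 and 84776736 to 84798666 on chromosome 2) both fell.

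Tumour replicate 1 stood apart from the other tumours in many transporters. Of the 34 tested members, 12 differed at least 2-fold between tumour replicate 1 and the mean of tumour replicates 2 and 4, 35.3% beside 20.4% of all genes tested. Slc1a3, Slc7a10, Slc1a2 and Slc38a5 were 5.19, 4.91, 3.94 and 3.55 times the mean of the other tumours. At the low end Slc7a2 was at 0.202 and Slc7a15, Slc1a7 and Slc6a14 at 0.329, 0.355 and 0.356 times that mean, and Slc43a1, Slc7a8, Slc36a4 and Slc38a1 followed. Few reads lie behind some of these ratios. In tumour replicates 1, 2 and 4, Slc1a7 had 2, 3 and 6 reads and Slc38a5 had 32, 14 and 2. Tumour replicates 2 and 4 differed at least 2-fold in 5 members, 14.7% beside 10.9% of all genes. Tumour replicate 1 had the lowest surfactant and alveolar type 2 sum of the tumours, 28954 CPM beside 65591 and 50388 CPM, and its alveolar macrophage marker sum was 241 CPM beside 1815 and 1216 CPM in tumours and 1383, 538 and 294 CPM in control lung. The part of either in the transporter values was not tested.

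**Figure D4:**
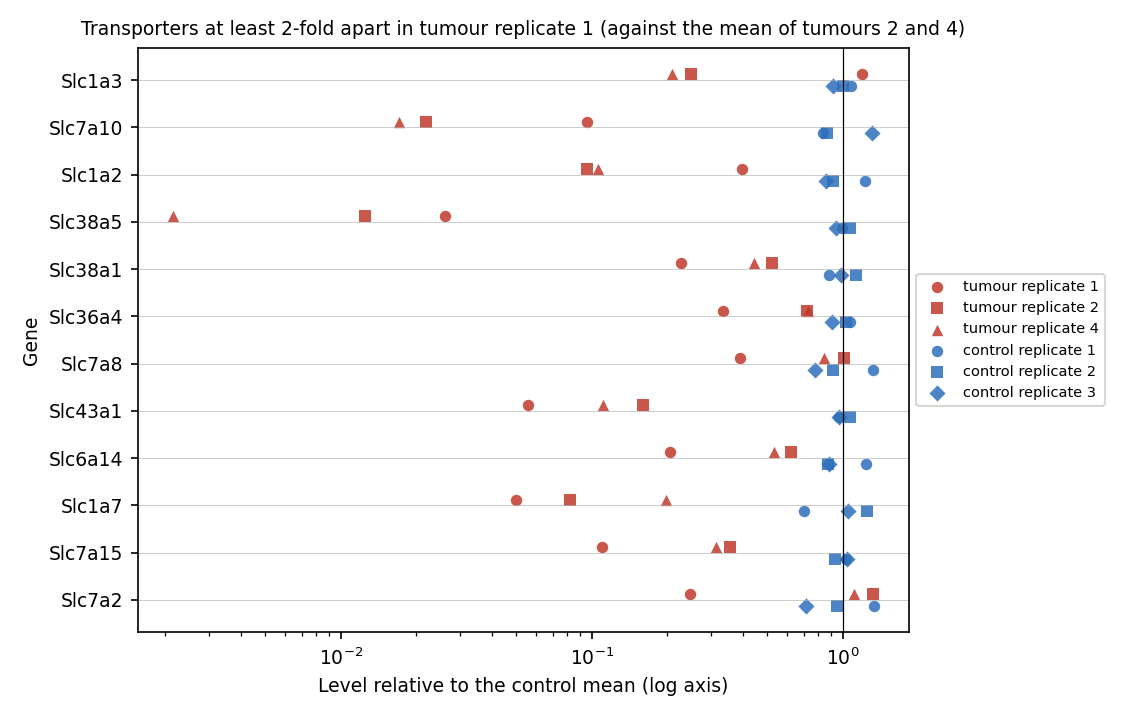
The 12 transporters that differed at least 2-fold between tumour replicate 1 and the mean of tumour replicates 2 and 4, each as its level relative to the control mean (horizontal log axis). Red circles are tumour replicate 1, red squares and triangles the other tumours, and blue symbols the controls. Slc1a3 lies just above the controls in tumour replicate 1 and well below them in the other tumours. Slc1a7 and Slc38a5 had few reads in the tumours.

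Genes that act beside the transporters gave a mixed picture. Of 12 transporter partners and regulators, 8 rose and 1 fell, with a median log2 fold change of 0.88. Over all genes tested 18.1% rose and 23.8% fell, with a median of 0.01. Tmem27 (collectrin), a membrane protein that brings the neutral amino acid carrier Slc6a19 to the surface of kidney cells, had 49.4, 33.0 and 48.4 CPM in tumours and 0.0543, 0.0760 and 0 CPM in control lung, 7090 and 7 reads, which is 944 times higher in tumours after scaling (95% counting interval 458 to 2349). Every tumour was far above every control (log2 fold change 9.83 ± 0.49, adjusted p = 1.21e-05, and 10.72 without control replicate 2). Slc6a19 itself had 2.08, 2.82 and 3.32 CPM in tumours and 0.0543, 0 and 0 CPM in control lung, 437 and 2 reads, a ratio of 204 (56.0 to 1687). Both reads were in control replicate 1. Trib3, a target of ATF4, had a log2 fold change of 2.45 ± 0.30 (adjusted p = 3.46e-04), whereas Atf4 itself had 108, 61.0 and 56.7 CPM in tumours and 56.6, 80.5 and 52.7 CPM in control lung and did not pass (adjusted p = 0.512). Bsg, an ancillary protein of several carriers, and Myc rose by 1.26 ± 0.19 and 1.08 ± 0.25 (adjusted p = 9.55e-04 and 0.00850). Among these partners and regulators the fall was that of the stress factor gene Ddit3, at -0.57 ± 0.19 (adjusted p = 0.0422). It lost its call without any 1 of the 6 libraries (adjusted p = 0.0721, 0.0728 and 0.0913 without tumour replicates 1, 2 and 4, and 0.163, 0.0810 and 0.0855 without control replicates 1, 2 and 3).

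Of 23 other amino acid and peptide carriers tested, 5 rose and 4 fell (median -0.15), beside 18.1% and 23.8% of all genes. Slc15a2, a carrier of small peptides, averaged 204 ± 48.2 CPM in tumours and 58.1 ± 1.96 CPM in control lung (log2 fold change 1.81 ± 0.19, adjusted p = 1.72e-04). Slc6a6, the taurine carrier, averaged 146 ± 31.3 CPM in tumours and 288 ± 29.4 CPM in control lung (-0.98 ± 0.20, adjusted p = 0.00466). Slc6a17, a vesicular carrier of neutral amino acids in neurons, was at most 0.130 CPM in tumours and at least 0.543 CPM in control lung (-3.79 ± 0.80, adjusted p = 0.00573), and had -3.19 without tumour replicate 2 and -4.87 without tumour replicate 4.

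The enzymes that use the carried amino acids also split. Of 19 genes of cysteine use and glutathione, 5 rose and 4 fell (median -0.09), beside 18.1% and 23.8% of all genes. Without control replicate 2 or control replicate 3 the count that fell was 1. Ggt5, which cleaves glutathione-linked leukotrienes, and Nfe2l2, the transcription factor of the antioxidant response, rose by 1.54 ± 0.23 and 0.89 ± 0.16 (adjusted p = 9.69e-04 and 0.00261). Cdo1, the enzyme that oxidises cysteine, had 1.49, 3.66 and 2.45 CPM in tumours and 140, 121 and 102 CPM in control lung. It fell by 5.58 ± 0.35 on the log2 scale (adjusted p = 2.08e-05) and was the gene of this list that still fell without either of those controls. Cbs, which makes cystathionine, fell by 1.73 ± 0.47 (adjusted p = 0.0182), with -2.41 without tumour replicate 1. Without control replicates 2 and 3, each left out alone, the adjusted p of Cbs was 0.0591 and 0.0704.

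Glutamine and glutamate metabolism had 9 genes that rose and 3 that fell of 18 tested (median 0.51), beside 18.1% and 23.8% of all genes. The count that fell was 1 without control replicate 2. Gfpt1, which uses glutamine to start hexosamine synthesis, averaged 358 ± 45.3 CPM in tumours and 85.04 ± 8.61 CPM in control lung (log2 fold change 2.07 ± 0.17, adjusted p = 5.58e-05). Aldh18a1, the first enzyme of proline synthesis from glutamate, rose by 1.74 ± 0.18 (adjusted p = 1.47e-04). Glul, glutamine synthetase, had 54.9, 73.4 and 56.3 CPM in tumours and 214, 221 and 177 CPM in control lung, a log2 fold change of -1.73 ± 0.18 (adjusted p = 1.56e-04). Oat, ornithine aminotransferase, fell by 1.09 ± 0.32 (adjusted p = 0.0248), and without control replicates 1 and 2 its adjusted p was 0.0741 and 0.0855.

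In arginine and polyamine metabolism 8 genes rose and 2 fell of 15 tested (median 0.61), beside 18.1% and 23.8% of all genes. Without control replicate 2 or control replicate 3, 5 rose and none fell, and the count that fell was 4 without tumour replicate 1 and 1 without tumour replicate 4 or control replicate 1. Arg2, a mitochondrial arginase, had 111, 115 and 105 CPM in tumours and 10.4, 6.82 and 7.96 CPM in control lung. Each tumour was more than 10-fold above each control (log2 fold change 3.72 ± 0.19, adjusted p = 1.37e-05), and 20.0% of its exon bases lie in exons of Vti1b. Azin1, which protects ornithine decarboxylase from its inhibitor, rose by 2.38 ± 0.23 (adjusted p = 1.16e-04). Ass1, argininosuccinate synthase, fell by 1.14 ± 0.29 (adjusted p = 0.0146), and without control replicates 2 and 3 its adjusted p was 0.0675 and 0.0547. The related Azin2, listed under its older name Adc, fell by 0.67 ± 0.20 (adjusted p = 0.0288), with adjusted p of 0.0704 without tumour replicate 4 and 0.0564, 0.0773 and 0.116 without control replicates 1, 2 and 3.

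Breakdown of branched-chain amino acids had 4 genes that rose and none that fell of 14 tested (median 0.30), beside 18.1% and 23.8% of all genes. The count that rose was 1 without control replicate 2, and 2 without tumour replicate 2, tumour replicate 4, control replicate 1 or control replicate 3, each left out alone. Without tumour replicate 1 or tumour replicate 2, 1 gene fell. Mccc2, of the leucine pathway, rose by 0.75 ± 0.16 (adjusted p = 0.00594). Bcat2, the mitochondrial aminotransferase, rose by 0.57 ± 0.17 (adjusted p = 0.0274), with adjusted p of 0.0782 without tumour replicate 2 and 0.0703, 0.0986 and 0.0596 without control replicates 1, 2 and 3. Of the amino acid sensing genes upstream of mTORC1, 3 rose and 4 fell of 27 (median 0.02). Both counts are below the shares of 18.1% and 23.8% over all genes. Sesn2, the leucine sensor that ATF4 can induce, rose by 0.91 ± 0.18 (adjusted p = 0.00416), and its relative Sesn1 fell by 1.30 ± 0.19 (adjusted p = 9.50e-04). Rragb, a GTPase that recruits mTORC1, fell by 2.72 ± 0.46 (adjusted p = 0.00195).

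**Figure D5:**
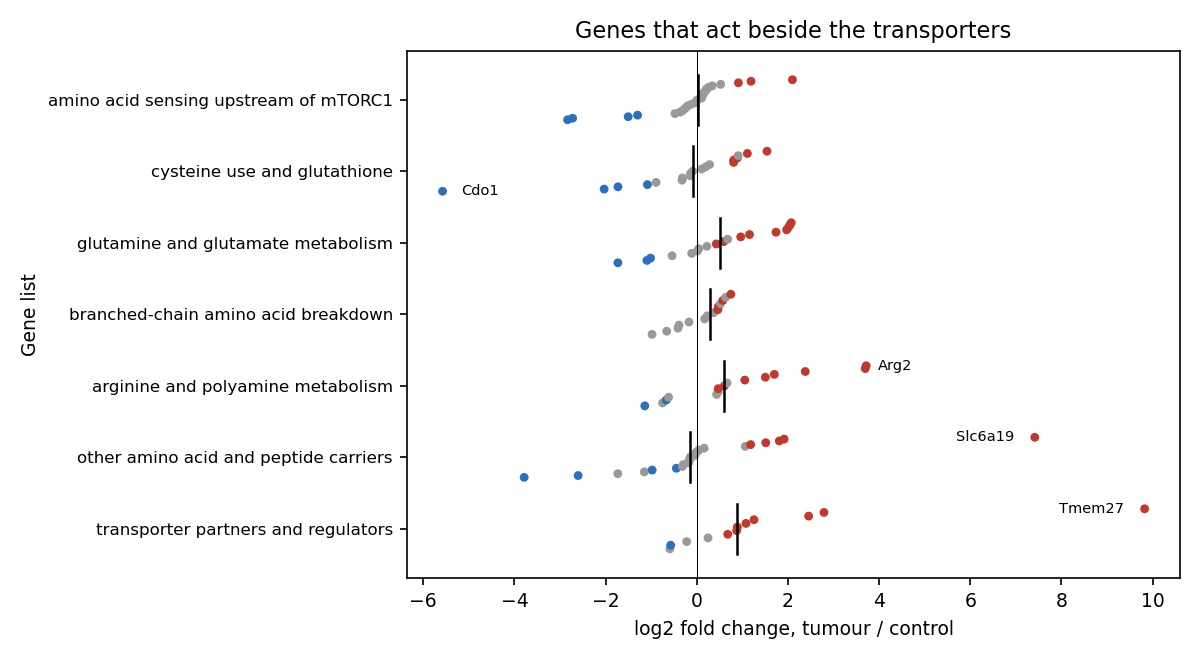
Log2 fold change (tumour over control, horizontal axis) of the tested genes of 7 lists that act beside the transporters, with a vertical bar at each list's median. Red points rose, blue points fell and grey points did not pass; Tmem27 at 9.83, Slc6a19 and Arg2 lie far to the right and Cdo1 at -5.58 far to the left.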

How the data were processed

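Total RNA of lung or lung tumour was sequenced with standard Illumina libraries, per the labels' protocols. The values are raw read counts by gene name as deposited, with a column for each library. The authors ran featureCounts 1.6.5 on exons grouped by name (GENCODE vM1), per the file headers, and counted a read once for every name it touched, without a strand option and without joining pairs. Names that overlap, on either strand, can thus hold the same reads. Tools and builds in the submitters' processing notes are STAR, limma, edgeR, R 3.6.0, GRCm38 and mm9, with STAR's version not given in the sources used here. An exon ending at base 197054592 of chromosome 1 fits mm9, and table coordinates are given so.

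The counts were tested with edgeR 4.0.16 (R 4.3.3): a quasi-likelihood F test of group alone, after filterByExpr (minimum count 10) and TMM scaling. Values of p were adjusted over 20001 genes by Benjamini-Hochberg, and an adjusted p under 0.05 was called changed. Standard errors came from the F statistic. CPM are TMM-scaled, and per kb levels divide by the deposited exon length. All 6 count columns were used. Chi-square per degree of freedom between libraries of a group exceeded sampling noise (59.1 to 258 among tumours and 83.0 to 143 among controls), so none was treated as a repeat deposit. Ratios of few reads carry exact binomial 95% intervals. The members and gene lists were chosen with earlier results of these data known. Values in each library are given for 14 carriers of the 4 substrate groups and for called members with an absolute log2 fold change of at least 1, and from each gene list the 2 genes with the smallest p in each direction are named, with partners added. The adipocyte genes and the others named beside these were chosen after their values were seen. Among the pathway list entries, 127 matched by name, 9 by an older name and 2 did not match. Promoters come from a RefSeq table (GRCm38.p6) that matched 32 of 43 members. The test was checked on simulated data. Alternatives were DESeq2 1.42.0, limma-voom (limma 3.58.1), other scalings and filters, a threshold of 0.01, each library left out, and a replicate block. Some list members entered the counts but are not reported here by name.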

Additional observations from a re-analysis of the deposited data

How the results depend on the processing

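Relative to 7 transporters that rose and 14 that fell, the counts were 7 and 17 with DESeq2 or without the low count filter, 8 and 15 with limma-voom, 8 and 14 with upper quartile scaling, 6 and 16 with total counts only, and 7 and 13 with a minimum count of 50. Total counts moved the median of all genes by -0.12 on the log2 scale. Leaving out each library gave 4 to 8 transporters that rose and 12 to 16 that fell, and 6421 to 9436 changed genes in all. With an adjusted p under 0.01, 3 transporters and 2073 genes rose. Slc38a10 had 0.00842 with upper quartile scaling, 0.25 with the block described next and -0.15 to 0.14 over left-out libraries. Slc7a4 had -0.0365 with limma-voom, -0.0721 with total counts only, -0.0022 with a minimum count of 50 and -0.34 to 0.19 over left-out libraries. Slc7a2 had -0.56 to 0.31 over left-out libraries. The cause of these shifts was not tested. With total counts Slc7a1 had an adjusted p of 0.114 and Slc38a9 0.0349. Depth limits the 9 untested members, which had at most 29 reads in a group except Slc38a11.

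The groups share only replicate numbers 1 and 2, and nothing in the labels ties them. Deviations of same-numbered libraries from their group means had correlations of -0.182 and -0.00858. Pairs with different numbers had -0.122 to 0.177. With so few libraries in a group, these correlations cannot decide whether libraries of the same number are paired. With a replicate block, 1 transporter (Slc38a2) rose and 9 fell, and 1092 genes rose and 2549 fell over all genes. In that fit tumour replicate 4 and control replicate 3 had no partner of the same number. The difference between groups thus came from replicates 1 and 2 alone, and fewer calls can reflect fewer libraries.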
